A study of Schizosaccharomyces pombe with 261 samples.

Results

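Messenger RNA of 9 genes for the removal of peroxide and superoxide and for the use of glutathione was followed through a heat shock in fission yeast, Schizosaccharomyces pombe. The genes were chosen with earlier results of these data known, and are given by their systematic identifiers: ctt1 (SPCC757.07c), gpx1 (SPBC32F12.03c), srx1 (SPBC106.02c), tpx1 (SPCC576.03c), sod1 (SPAC821.10c), trr1 (SPBC3F6.03), gst1 (SPCC191.09c), gst2 (SPCC965.07c) and gst3 (SPAC688.04c). They are 9 of the 7015 gene identifiers with counts, and all 9 passed the filter on low counts that left 6172 genes for testing. Of the 9, 4 (ctt1, gpx1, srx1 and gst3) rose within 5 min of heat in wild-type cells of both experiments and in the libraries labelled clr4Δ. None of the 9 was called higher after heat in the libraries labelled atf1Δ or pcr1Δ by edgeR over all libraries with TMM scaling and no replicate block. Other settings called tpx1 in both and gst3 in atf1Δ. A block by replicate number also called trr1 and gst2 higher in atf1Δ, whose numbers did not pair the libraries.

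Hydrogen peroxide is broken down by catalase (Ctt1), by the glutathione peroxidase family (Gpx1) and by peroxiredoxins (Tpx1). Sulfiredoxin (Srx1) restores a peroxiredoxin that peroxide has over-oxidised, thioredoxin reductase (Trr1) feeds the thioredoxins that reduce it, superoxide dismutase (Sod1) makes peroxide from superoxide, and glutathione S-transferases (Gst1, Gst2, Gst3) join glutathione to reactive compounds. In fission yeast the stress kinase Sty1 acts through the transcription factor Atf1 and its partner Pcr1, and peroxide also drives the factor Pap1 into the nucleus through Tpx1. Heat stress activates Sty1 as well.

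All strains were of mating type h+ and shared the alleles ade6-DN/N and ura4-DS/E, the marker leu1-32, and the reporters imr1L::ura4+ and otr1R::ade6+ in centromeric repeats. The wild type (WT) carried no further deletion, and the other strains carried atf1Δ::KanMX6, pcr1Δ::KanMX6 or clr4Δ::NatMX6, where Clr4 is the histone methyltransferase that builds heterochromatin. Cells in rich YES medium at 30 °C were taken in mid-log growth (0 min) or after a move to 37.5 °C. The 39 mRNA libraries make 13 groups of 3: WT at 0, 5 and 25 min (series RNA1), WT at 0, 2.5 and 5 min (series RNA2), and in series RNA3 clr4Δ at 0, 2.5 and 5 min with atf1Δ and pcr1Δ at 0 and 5 min. Series RNA3 held no WT, so a difference between a deletion strain and WT cannot be told apart from a difference between series. The strains of RNA3 share a series label and were compared with each other within it, but the labels do not say whether they were prepared together. At 0 min, levels in clr4Δ differed from WT of RNA1 in 2316 genes and from WT of RNA2 in 230 (edgeR, adjusted p below 0.05). A batch difference between the strains of RNA3 was not tested.

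Libraries held 6573143 to 12588425 counts in genes. At 0 min atf1 stood at 128.5 ± 12.4 CPM (SD, n = 3) in the libraries labelled atf1Δ, 130.5 ± 14.2 in WT of RNA1, 213 ± 8.65 in WT of RNA2 and 209 ± 21.6 in clr4Δ, so it was no lower than in RNA1, while at 5 min it stood at 168 ± 6.66 against 718 ± 31.1, 572 ± 55.4 and 580.5 ± 89.3. The pcr1 gene stood at 42.3 ± 4.84 CPM in pcr1Δ at 0 min against 64.1 ± 8.98, 71.7 ± 15.2 and 87.5 ± 11.8 in the same other groups. Neither transcript was absent, and clr4 itself stood at 175 ± 4.16 CPM in the libraries labelled clr4Δ, above WT, so strain names below mean the libraries so labelled. CPM is counts per 1000000 counts in tested genes after TMM scaling. The labels do not say whether the 3 libraries of a group came from separate cultures, so p-values measure the spread between these libraries, which may be technical. In bulk RNA, a change in every cell and a change in the share of cells that express a gene cannot be told apart.

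Promoters of the 4 genes that rose at 5 min in each course with intact atf1 and pcr1 are shown, because these genes rose together in those courses. Each window runs from 250 bases before to 50 bases after the gene start in the RefSeq annotation of build ASM294v3, 5′ to 3′ on the coding strand, with motif matches in capitals. They lie at III:58784-59083 (ctt1, minus strand), II:2789538-2789837 (gpx1, minus strand), II:376963-377262 (srx1, minus strand) and I:3116847-3117146 (gst3, minus strand).
ctt1: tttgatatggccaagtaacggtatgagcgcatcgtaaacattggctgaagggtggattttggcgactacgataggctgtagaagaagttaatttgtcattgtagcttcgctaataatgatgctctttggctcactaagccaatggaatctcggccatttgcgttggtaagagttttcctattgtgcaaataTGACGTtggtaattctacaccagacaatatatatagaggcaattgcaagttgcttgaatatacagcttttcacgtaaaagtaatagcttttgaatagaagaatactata
gpx1: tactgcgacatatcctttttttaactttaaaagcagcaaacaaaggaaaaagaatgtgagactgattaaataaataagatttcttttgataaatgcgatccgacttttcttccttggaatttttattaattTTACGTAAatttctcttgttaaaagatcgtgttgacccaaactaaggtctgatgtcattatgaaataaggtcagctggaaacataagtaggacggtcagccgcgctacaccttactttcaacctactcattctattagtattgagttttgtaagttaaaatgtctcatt
srx1: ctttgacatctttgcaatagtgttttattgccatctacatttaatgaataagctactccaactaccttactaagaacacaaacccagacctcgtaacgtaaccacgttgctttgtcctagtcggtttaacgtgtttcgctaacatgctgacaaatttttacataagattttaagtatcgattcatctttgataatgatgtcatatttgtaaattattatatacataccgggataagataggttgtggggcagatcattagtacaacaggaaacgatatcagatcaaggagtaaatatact
gst3: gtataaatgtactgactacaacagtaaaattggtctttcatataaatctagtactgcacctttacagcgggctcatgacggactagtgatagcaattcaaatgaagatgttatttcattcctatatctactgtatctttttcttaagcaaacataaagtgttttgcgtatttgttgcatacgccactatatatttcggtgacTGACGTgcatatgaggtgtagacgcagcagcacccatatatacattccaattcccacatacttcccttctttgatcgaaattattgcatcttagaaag

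The letters TGACGT, the core of the cyclic AMP response element that Atf1 and Pcr1 bind, were searched on both strands. They were in the windows of ctt1, starting 59 bases before the gene start, and gst3, starting 48 bases before it. That is 2 of the 9 members, beside 302 of 5112 protein-coding promoters of the same length (5.91%). The letters TTACGTAA, a form of the site that Pap1 binds, were in the gpx1 window 119 bases before the start, and in 24 of the 5112 promoters (0.470%). The heat shock element letters GAANNTTC were in no member's window and in 568 of the 5112 (11.1%). The 3 motifs do not share a match. The srx1 window held none of them, which says only that these letters are not in these 300 bases.

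Before heat the 9 genes spanned a wide range of levels. On the scale of CPM per kilobase of transcript, WT of RNA1 at 0 min had tpx1 highest at 1300 ± 115 (SD, n = 3), followed by sod1 at 405 ± 74.9, gst2 at 402 ± 117, trr1 at 215 ± 19.2 and gpx1 at 142 ± 5.67. Catalase and sulfiredoxin were low before heat, with ctt1 at 35.8 ± 1.51, gst3 at 33.3 ± 0.563 and srx1 at 24.2 ± 0.217 CPM per kilobase. The lowest was gst1 at 3.37 ± 0.593. In RNA2 the same scale gave sod1 888 ± 163, tpx1 799 ± 117, gst2 242 ± 69.8, trr1 215 ± 6.13, gpx1 184 ± 27.6, ctt1 48.8 ± 6.47, gst3 46.5 ± 1.79, srx1 37.8 ± 5.69 and gst1 2.90 ± 0.503. Neighbours in these orders whose spreads (mean ± SD) overlapped were sod1 and gst2 in RNA1. In RNA2 they were tpx1 and sod1, gst2 and trr1, trr1 and gpx1, and ctt1 and gst3.

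In WT of series RNA1, 5 of the 9 members rose after 5 min of heat and none fell, where 24.9% of all tested genes rose and 23.5% fell. At 25 min against 0 min, 6 rose and 1 fell, beside 33.9% and 33.5% of all genes. From 5 to 25 min, 4 rose and 2 fell, beside 28.4% and 29.6%. The median log2 fold change of the 9 was 1.14 at 5 min and 0.85 at 25 min, against 0.00 and 0.02 over all genes. In RNA2, 2 members rose by 2.5 min and none fell, where 1.13% of all genes rose and 0.599% fell. Between 2.5 and 5 min 4 rose and none fell, beside 7.42% and 6.09%. At 5 against 0 min 4 rose and 1 fell, where 873 of the 6172 tested genes rose and 805 fell (27.2% in either direction).

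Catalase had the largest change at 5 min among the 9 in both WT series. In RNA1 the ctt1 libraries stood at 80.5, 81.5 and 75.3 CPM at 0 min, at 1028, 1309 and 1171 at 5 min and at 1289, 1794 and 1527 at 25 min. Every heated library lay above every 0 min library, while the highest library at 5 min lay above the lowest at 25 min. The log2 fold change at 5 min was 3.89 ± 0.27 (SE, adjusted p = 3.8e-14, edgeR quasi-likelihood test), a 14.8-fold rise, and that at 25 min was 4.28 ± 0.27 (adjusted p = 1.77e-15). From 5 to 25 min the further difference was 0.39 ± 0.23 (adjusted p = 0.15), and 0.39 (adjusted p = 0.00165) with the replicate number as a block within each course. In RNA2 the levels were 122, 109 and 93.0 CPM at 0 min, 258, 251.5 and 126 at 2.5 min, and 782, 634 and 420 at 5 min. All 3 times separated without overlap, and replicate 3 was the lowest library at each. The rise was 0.97 ± 0.24 by 2.5 min (adjusted p = 0.0267) and 2.50 ± 0.25 by 5 min (adjusted p = 1.45e-09).

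The glutathione peroxidase gene gpx1 kept rising up to 25 min. Its RNA1 libraries stood at 104, 105 and 112 CPM at 0 min, 589.5, 750 and 688.2 at 5 min, and 1729, 2127 and 1912 at 25 min. The 3 times did not overlap, and at 25 min gpx1 exceeded ctt1 in every library. The log2 fold change was 2.66 ± 0.17 at 5 min (adjusted p = 9.52e-15) and a further 1.51 ± 0.16 from 5 to 25 min (adjusted p = 1.95e-09, edgeR). In RNA2 the libraries stood at 158, 140 and 117 CPM at 0 min, 219, 225.5 and 137 at 2.5 min, and 445, 416 and 258 at 5 min. The 2.5 min libraries overlapped those at 0 min through replicate 3, while all 5 min libraries lay above. The 2.5 min difference was 0.49 ± 0.16 (adjusted p = 0.158), 0.46 (adjusted p = 0.000447) with the replicate block within each course, and 0.68 (adjusted p = 0.012) without replicate 3 at 2.5 min. The rise at 5 min was 1.43 ± 0.17 (adjusted p = 2.86e-08).

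Sulfiredoxin was the member whose rise at 5 min was followed by a fall. The srx1 libraries of RNA1 stood at 19.2, 19.0 and 18.9 CPM at 0 min, 133, 137.5 and 121 at 5 min, and 28.0, 22.1 and 22.6 at 25 min. The 25 min libraries lay far under those at 5 min and a little above those at 0 min. The rise at 5 min was 2.78 ± 0.20 on the log2 scale (adjusted p = 1.79e-13), and the difference at 25 against 0 min was 0.36 ± 0.21 (adjusted p = 0.132, edgeR), or 0.36 (adjusted p = 0.0189) with the replicate block within each course. The drop from 5 to 25 min ran against the further rises of gpx1, tpx1 and gst3 in the same libraries. In RNA2 srx1 stood at 34.6, 28.4 and 25.9 CPM at 0 min, 62.3, 61.7 and 33.1 at 2.5 min, and 130, 131 and 78.6 at 5 min. Replicate 3 was again the lowest at each time. The rise was 0.82 ± 0.20 by 2.5 min (adjusted p = 0.0184) and 1.94 ± 0.19 by 5 min (adjusted p = 1.48e-09).

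The 2.5 min calls of ctt1 and srx1 are less firm than those at 5 min. Both were lost without replicate 2 or 3 at 0 min or replicate 1 or 2 at 2.5 min, with adjusted p up to 0.204 for ctt1 and 0.183 for srx1, with library totals in place of TMM (adjusted p = 0.051 each), and in a fit of the compared groups alone (0.158 and 0.211, edgeR). With the replicate block within each course, 483 of all tested genes were called at 2.5 min in place of 107, and 1558 in place of 834 between 2.5 and 5 min.

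Among the glutathione S-transferases, gst3 rose at 5 min in both WT series, while the call of a gst2 rise at 25 min in RNA1 depended on the setting. In RNA1 gst3 stood at 43.4, 43.3 and 42.1 CPM at 0 min, 134, 137 and 137 at 5 min, and 242, 288 and 235 at 25 min. These 3 groups did not overlap, and replicates lay close together. The log2 rise was 1.66 ± 0.10 at 5 min (adjusted p = 1.29e-15) and 2.57 ± 0.10 at 25 min (adjusted p = 9.43e-21, edgeR). In RNA2 the values were 61.7, 61.0 and 57.4 CPM at 0 min, 70.9, 66.4 and 67.0 at 2.5 min, and 107, 99.3 and 88.3 at 5 min. The 5 min rise there was 0.71 ± 0.10 (adjusted p = 7.12e-07). By contrast gst2 stood at 944, 635 and 553 CPM at 0 min, 881, 547.5 and 538 at 5 min and 1198, 750 and 823 at 25 min in RNA1, with the 3 times overlapping and replicate 1 the highest at each. For each replicate number gst2 was higher at 25 than at 0 min. Its difference at 25 against 0 min was 0.38 ± 0.23 (adjusted p = 0.143), and 0.39 (adjusted p = 3.27e-06) with the replicate block within each course.

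The third transferase, gst1, was read by few counts, from 7 to 66 a library, and its levels lay between 0.871 and 5.90 CPM. In RNA1 it stood at 3.61, 3.71 and 2.65 CPM at 0 min, 2.98, 1.36 and 1.955 at 5 min, and 5.35, 5.90 and 4.93 at 25 min. The 25 min libraries lay above all others of RNA1. The log2 difference was -0.67 ± 0.29 at 5 min (adjusted p = 0.0543), -0.70 (adjusted p = 0.0222) with the replicate block within each course, and the rise from 5 to 25 min was 1.36 ± 0.28 (adjusted p = 9.14e-05). The rise at 25 against 0 min was 0.69 ± 0.25 (adjusted p = 0.0169, edgeR), and was lost without replicate 2 at 25 min (0.0684) or replicate 3 at 0 min (0.0813). In RNA2 gst1 fell by 0.99 ± 0.32 on the log2 scale at 5 min (adjusted p = 0.0176), from 3.06, 2.29 and 3.22 CPM to 0.966, 1.63 and 1.69. That call was lost without replicate 1 or 3 at 0 min or replicate 1 at 5 min, with adjusted p up to 0.113, and in the fit of the compared groups alone (0.0546).

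The coding sequences of gst1 and gst2 were 77.2% identical, with a longest shared run of 19 bases, and the pairs with gst3 were 61.5% (gst1) and 59.0% (gst2) identical. The gst2 level was far above that of gst1, and whether reads of 1 of them were counted for the other was not tested. At 0 min the gst2 means were 427 CPM in RNA2 and 1698 in atf1Δ, beside 2.854 and 3.885 for gst1. At 5 min in atf1Δ they were 1919 for gst2 and 1.849 for gst1. The values of gst1 are uncertain in this respect. A non-coding RNA, SPNCRNA.1222, overlaps 537 bases of gst1 on the other strand. Its means in RNA1 were 5.99, 3.82 and 5.46 CPM at 0, 5 and 25 min, beside 3.32, 2.10 and 5.39 for gst1. Whether the counting used the strand is not given in the sources used here. SPNCRNA.1678, which overlaps 1620 bases of trr1 on the other strand, lay between 4.41 and 6.81 CPM in group means, where trr1 lay between 345 and 572. Of all reads, 0.709% to 1.37% were left out as lying in several genes, while 1352 genes have 50% or more of their length overlapped on the other strand. The values of gst1 are uncertain in this respect too.

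The peroxiredoxin gene tpx1 differed between the WT experiments. In RNA1 it stood at 1073, 1011 and 900 CPM at 0 min, 2162, 2320 and 2080 at 5 min, and 3820, 3845 and 3200 at 25 min. The 3 times did not overlap. The log2 rise was 1.14 ± 0.21 at 5 min (adjusted p = 2.02e-05) and 1.86 ± 0.21 at 25 min (adjusted p = 1.59e-09). In RNA2 the values were 604, 704 and 525 CPM at 0 min, 617, 947 and 460 at 2.5 min, and 730, 879 and 566 at 5 min, with the 3 times overlapping. The 5 min difference in RNA2 was 0.25 ± 0.20 (adjusted p = 0.42, edgeR).

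Thioredoxin reductase fell slightly at 25 min and superoxide dismutase rose. In RNA1, trr1 stood at 469, 436 and 392 CPM at 0 min, 446, 424 and 439 at 5 min, and 376.5, 321 and 338 at 25 min. It fell by 0.32 ± 0.11 on the log2 scale at 25 against 0 min (adjusted p = 0.00767) and by 0.34 ± 0.11 against 5 min (adjusted p = 0.00705), the latter becoming -0.08 (adjusted p = 0.46) with library totals in place of TMM. For sod1 the libraries stood at 276.5, 375 and 276 CPM at 0 min, 341, 526 and 419 at 5 min, and 510, 606.5 and 553 at 25 min. It rose by 0.85 ± 0.28 at 25 min (adjusted p = 0.00773). The 5 min difference of sod1 was 0.47 ± 0.28 (adjusted p = 0.167, edgeR), and 0.47 (adjusted p = 6.27e-05) with the replicate block within each course, and replicate 2 was the highest of each time. From 5 to 25 min the differences were 0.38 ± 0.28 for sod1 (adjusted p = 0.248) and 0.49 ± 0.23 for gst2 (adjusted p = 0.0641), and 0.39 (0.000339) and 0.50 (6.17e-08) with that block.

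**Figure D1:**
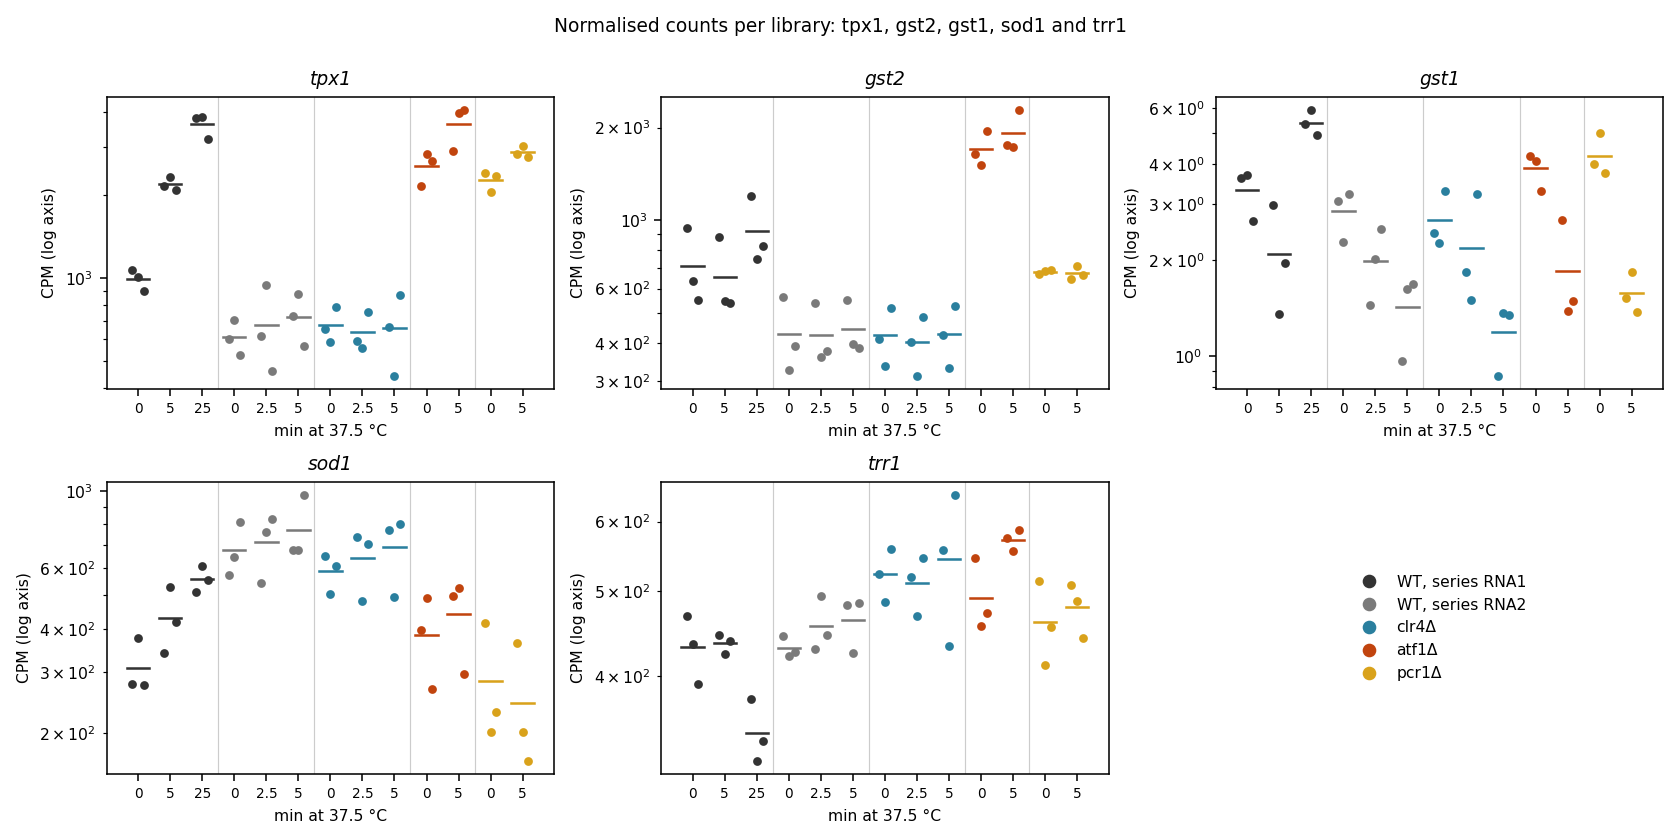
Normalised counts (CPM, log axis) of tpx1, gst2, gst1, sod1 and trr1 in each library by minutes at 37.5 °C, strain and series; points are libraries and short horizontal lines are group means. The atf1Δ libraries stand highest for gst2 (1506 to 1952 CPM at 0 min), and tpx1 is at 2058 CPM or more in all atf1Δ and pcr1Δ libraries.

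The same contrast in the 2 WT experiments gave responses of different size. The 5 min response was larger in RNA1 for 5 members and smaller for none, where 6.87% of all tested genes had a larger and 2.41% a smaller response. The difference was 1.38 ± 0.34 for ctt1 (adjusted p = 0.00692), 1.23 ± 0.23 for gpx1 (adjusted p = 0.000426) and 0.95 ± 0.14 for gst3 (adjusted p = 1.51e-05, edgeR). For srx1 it was 0.84 ± 0.27 (adjusted p = 0.0477) and for tpx1 0.89 ± 0.29 (adjusted p = 0.0458). Both of these calls were lost in most fits that left out a library: 8 of 12 for srx1, with adjusted p up to 0.172, and 10 of 12 for tpx1, up to 0.159. For srx1 these fits left out replicate 1, 2 or 3 at 0 min or 1 or 2 at 5 min of RNA1, or replicate 1 or 2 at 0 min or 3 at 5 min of RNA2. For tpx1 they left out any of the RNA1 libraries at 0 or 5 min, replicate 1 or 2 at 0 min of RNA2, or replicate 1 or 3 at 5 min.

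In the libraries labelled clr4Δ, as in RNA2, ctt1, gpx1, srx1 and gst3 rose after 5 min and gst1 fell. That is 4 members higher and 1 lower, beside 16.2% and 14.0% of all genes. From 2.5 to 5 min 4 rose and none fell, beside 8.57% and 7.44%. At 2.5 min none of the 9 was called in edgeR over all libraries without a replicate block, beside 0.907% of all genes higher and 0.664% lower, and 3 had an unadjusted p under 0.05. DESeq2 called 3 of the 9, all higher, beside 79 of all genes higher and 75 lower. With the replicate block within each course edgeR also called 3 higher, with 582 of all genes called in either direction. On the compared groups alone edgeR called 1 higher, with 55 of all genes called in either direction. With ctt1 at 143, 131 and 116 CPM at 0 min, 281, 260 and 159 at 2.5 min and 834, 675 and 514 at 5 min, the rise was 2.37 ± 0.25 by 5 min (adjusted p = 3.95e-09). The 3 times of ctt1 did not overlap. For gpx1 the libraries were at 175.5, 170.5 and 163 CPM, then 253.5, 282 and 221, then 491, 480 and 463, a rise of 1.49 ± 0.17 (adjusted p = 1.21e-08). Here too the times did not overlap, as for srx1, which went from 41.1, 40.2 and 46.7 CPM through 68.8, 78.0 and 54.8 to 154, 180.5 and 130.5, a rise of 1.86 ± 0.19 (adjusted p = 2.15e-09).

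The 2.5 min differences in clr4Δ were 0.84 ± 0.24 for ctt1 (adjusted p = 0.0681), 0.57 for gpx1 (0.0681) and 0.65 for srx1 (0.0745) on the log2 scale. With the replicate block within each course they were 0.81 (adjusted p = 1.28e-05), 0.57 (2.66e-05) and 0.63 (0.000407), and 582 of all genes were called in place of 97 (edgeR). Without replicate 3 at 2.5 min all 3 were called, ctt1 at 1.06 (adjusted p = 0.0145). Of the transferases in clr4Δ, gst3 rose by 0.50 ± 0.10 by 5 min (adjusted p = 0.000108), from 83.9, 73.0 and 69.0 CPM to 121, 98.7 and 101, and gst1 fell by 1.14 ± 0.33 (adjusted p = 0.00742), from 2.44, 2.27 and 3.29 CPM to 0.871, 1.37 and 1.34. The gst1 difference from 2.5 to 5 min was called with the block within each course (-0.82, adjusted p = 0.0448) and not without it. The tpx1 libraries overlapped across the 3 times, at 589 to 788, 557 to 756 and 443.5 to 867 CPM.

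In the libraries labelled atf1Δ and pcr1Δ, none of the 9 was called higher after 5 min of heat by edgeR over all libraries with TMM scaling and no replicate block, and 1, gst1, fell. In edgeR on the compared groups alone 2 members were called higher in atf1Δ and 1 in pcr1Δ, where the all-gene shares by direction are not given. With RLE size factors 2 were higher in atf1Δ, beside 951 of all genes higher and 960 lower. In the fit over all libraries with TMM scaling and no block, 12.6% of all genes rose and 17.3% fell in atf1Δ. In pcr1Δ 12.5% rose and 14.9% fell in that fit, so the strains still changed widely with heat. In atf1Δ, ctt1 stood at 62.8, 47.2 and 41.4 CPM at 0 min and at 74.7, 50.7 and 46.0 at 5 min, and in pcr1Δ at 36.6, 39.5 and 47.0 and at 32.0, 51.2 and 48.1. The times overlapped in both strains. For gpx1 the values were 7.96, 10.9 and 9.09 CPM, then 6.20, 9.01 and 9.24 in atf1Δ, and 9.02, 8.03 and 9.68, then 5.74, 8.55 and 6.30 in pcr1Δ. All 12 libraries stood at 10.9 CPM or less, while the lowest library of any other group was at 104 CPM. For srx1 the values were 59.1, 57.0 and 52.6 CPM, then 42.3, 38.7 and 39.7 in atf1Δ, where the 5 min libraries lay below those at 0 min, and 96.5, 67.6 and 68.3, then 85.3, 61.2 and 78.0 in pcr1Δ, where they overlapped.

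The gst3 libraries stood at 71.3, 73.0 and 72.4 CPM at 0 min and 77.6, 85.4 and 93.4 at 5 min in atf1Δ, and at 81.4, 67.0 and 73.7 and then 87.1, 78.9 and 72.9 in pcr1Δ. In atf1Δ the srx1 difference was -0.48 ± 0.19 (adjusted p = 0.0527), tpx1 0.52 ± 0.20 (0.0526) and gst3 0.24 ± 0.10 (0.0526), each just short of the threshold in edgeR. DESeq2 called the differences of tpx1 (0.55, adjusted p = 0.022) and gst3 (0.28, adjusted p = 0.0279) in atf1Δ, and library totals in place of TMM called srx1 (-0.65, adjusted p = 0.0125). With the replicate block within each course 4 members were called higher and 2 lower in atf1Δ. In that fit 2817 of all tested genes were called in either direction, in place of 1846. Among the 4 were trr1 (0.22, adjusted p = 0.0163) and gst2 (0.17, 0.0231, edgeR). Replicate numbers did not pair the atf1Δ libraries. In pcr1Δ the gpx1 difference was -0.39 ± 0.23 (adjusted p = 0.218), and -0.39 (adjusted p = 0.0425) with the replicate block within each course, where tpx1 (0.34, adjusted p = 0.00629) was also called. For gst1 the fall was 1.08 ± 0.28 in atf1Δ (adjusted p = 0.00383), from 4.26, 4.10 and 3.30 CPM to 2.67, 1.39 and 1.49. In pcr1Δ gst1 fell by 1.43 ± 0.28 (adjusted p = 0.000171), from 4.01, 5.00 and 3.75 CPM to 1.53, 1.83 and 1.37. The overlapping SPNCRNA.1222 went from 5.74 to 3.34 CPM in atf1Δ and from 6.49 to 3.43 in pcr1Δ in the group means, and its part in the gst1 values was not tested.

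**Figure D2:**
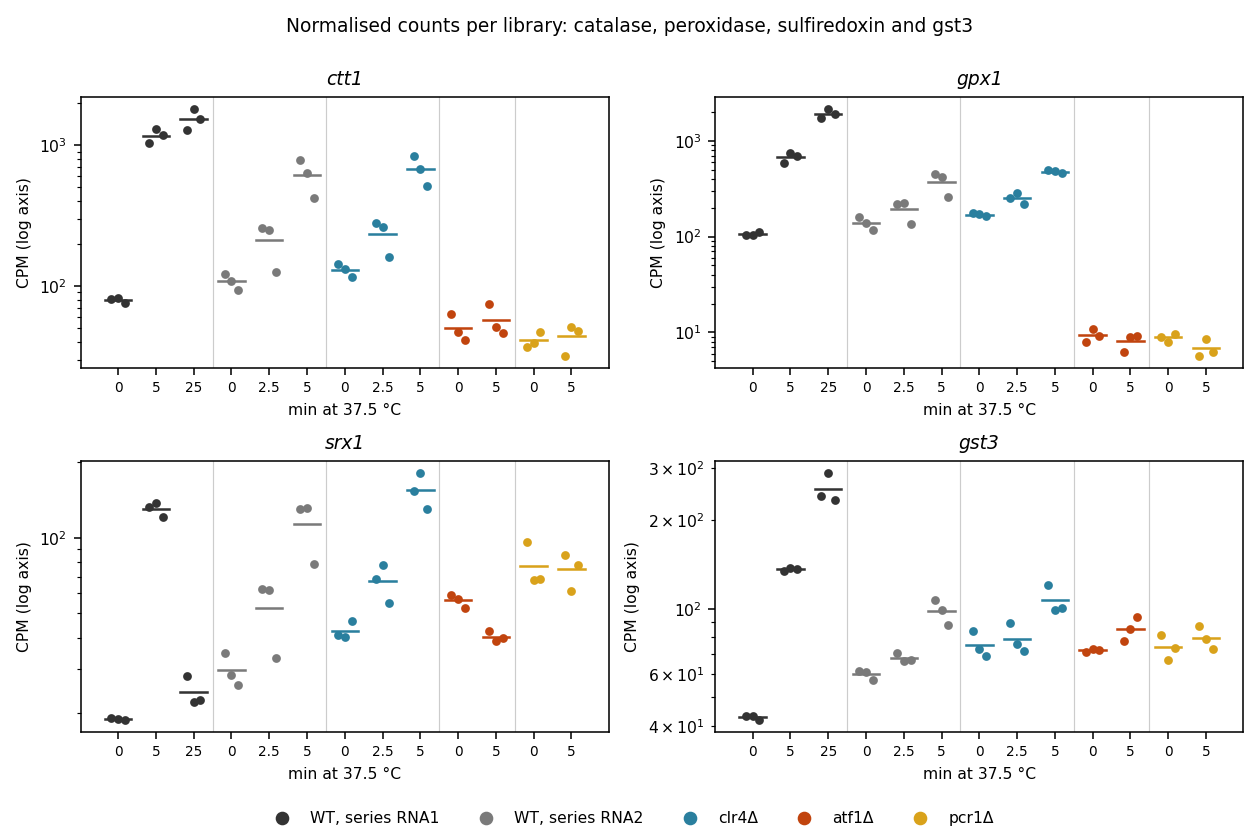
Normalised counts (CPM, log axis) of ctt1, gpx1, srx1 and gst3 in each library by minutes at 37.5 °C, strain and series; points are libraries and short horizontal lines are group means. In WT and clr4Δ the 5 min points stand above the 0 min points for all 4 genes, ctt1 reaching 1028 to 1309 CPM in RNA1, while gpx1 is at 10.9 CPM or less in atf1Δ and pcr1Δ.

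The difference in response was tested directly. Within series RNA3, the 5 min response was smaller for ctt1, gpx1 and srx1 in atf1Δ than in clr4Δ and larger for none of the 9, where 2.04% of all genes had a smaller and 0.437% a larger response. The log2 differences were -2.20 ± 0.35 (adjusted p = 8.05e-05), -1.68 ± 0.28 (adjusted p = 0.00012) and -2.34 ± 0.27 (adjusted p = 4.47e-07, edgeR). For pcr1Δ against clr4Δ the same 3 members had a smaller response and none a larger, beside 1.81% and 0.340% of all genes, by -2.28 ± 0.35, -1.88 ± 0.28 and -1.91 ± 0.26. Between atf1Δ and pcr1Δ the response of no member differed in edgeR, beside 0% of all genes larger and 0.0324% smaller. Of the 9, 0 had an unadjusted p under 0.05 and DESeq2 called 0. The 95% interval of that difference ran from -0.65 to 0.82 for ctt1 and from -0.97 to 0.11 for srx1 on the log2 scale.

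Against the mean of both WT series, 4 members had a smaller response in atf1Δ and none a larger, beside 7.94% and 1.02% of all genes, and the same held in pcr1Δ, beside 6.40% and 0.794%. The values in atf1Δ were -3.02 ± 0.31 for ctt1, -2.24 ± 0.25 for gpx1, -2.84 ± 0.24 for srx1 and -0.94 ± 0.12 for gst3. In pcr1Δ they were -3.10 ± 0.31, -2.44 ± 0.25, -2.41 ± 0.23 and -1.08 ± 0.12. Set against RNA1 or RNA2 alone, ctt1 differed by -3.71 or -2.33 in atf1Δ and by -3.79 or -2.41 in pcr1Δ. The gst3 difference in atf1Δ was -1.42 against RNA1 and -0.47 (adjusted p = 0.0718) against RNA2, and in pcr1Δ -1.56 and -0.60, so its size rests on which WT series is used. For gst3 the difference from clr4Δ within RNA3 was -0.26 ± 0.14 in atf1Δ (adjusted p = 0.407) and -0.40 ± 0.14 in pcr1Δ (adjusted p = 0.169, edgeR). With the replicate block within each course, gst3 (-0.40, adjusted p = 0.00362) and sod1 (-0.43, 0.0358) were called in pcr1Δ minus clr4Δ, and tpx1 (-0.35, 0.0452) and sod1 (-0.55, 0.00062) in pcr1Δ minus WT, with 494 of all genes in place of 133 and 1088 in place of 444.

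For clr4Δ against both WT series, gst3 alone among the 9 had a smaller response (-0.68 ± 0.12, adjusted p = 0.00091) and none a larger, beside 2.30% and 0.324% of all genes. With the replicate block within each course, ctt1 (-0.82, adjusted p = 0.000126), gpx1 (-0.54, 0.000523), srx1 (-0.51, 0.014) and tpx1 (-0.76, 9.92e-05) were also called, and 901 of all genes in place of 162 (edgeR). Against RNA2 alone, which has the times of clr4Δ, the gst3 difference was -0.21 (adjusted p = 1.0) and no member was called. Against RNA1 alone ctt1 (-1.51), gpx1 (-1.17), srx1 (-0.92), tpx1 (-1.18) and gst3 (-1.16) were all called.

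**Figure D3:**
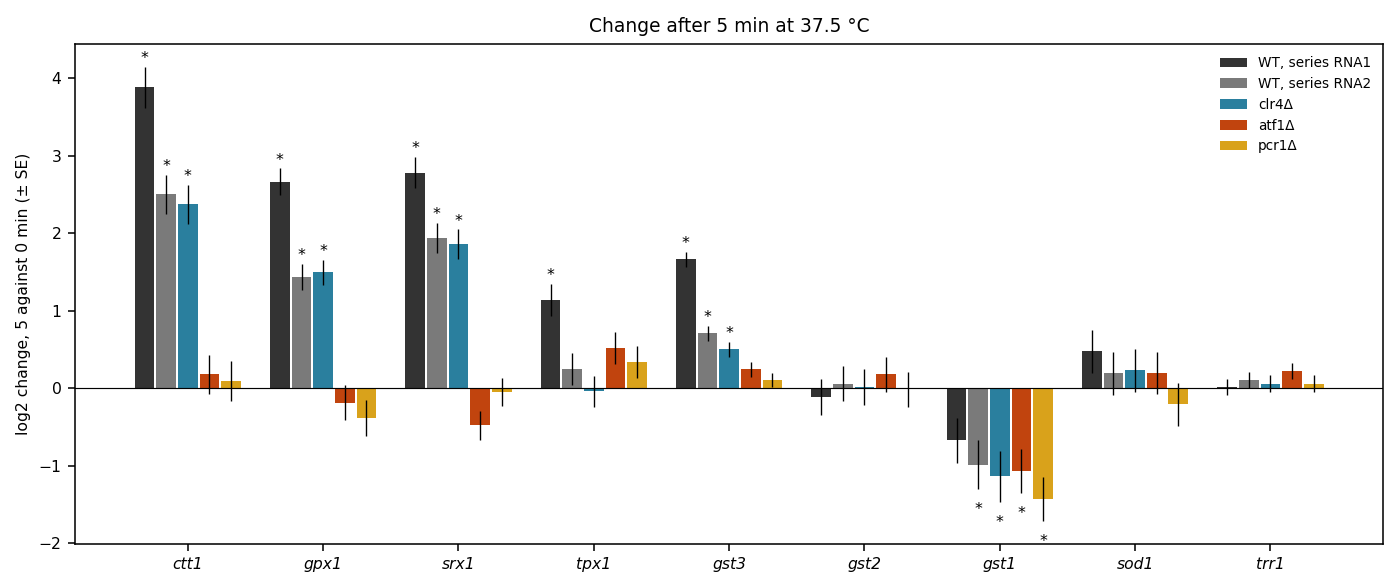
Log2 fold change at 5 against 0 min of each member (bars, with standard errors) in WT of RNA1 and RNA2, clr4Δ, atf1Δ and pcr1Δ; an asterisk marks an adjusted p below 0.05 in edgeR. The ctt1 bars read 3.89, 2.50 and 2.37 in RNA1, RNA2 and clr4Δ, and the only asterisks in atf1Δ and pcr1Δ are on gst1.

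Levels of single members before heat also differed between strains. Within RNA3 at 0 min, 2 of the 9 were higher and 2 lower in atf1Δ than in clr4Δ, near the 23.0% and 23.1% of all genes. In pcr1Δ 4 were higher and 3 lower than in clr4Δ, beside 20.6% and 22.7%. The gpx1 level was 9.31 ± 1.47 CPM (SD, n = 3) in atf1Δ and 8.91 ± 0.830 in pcr1Δ, against 170 ± 6.08 in clr4Δ. That is 18.2-fold lower in atf1Δ (log2 -4.18 ± 0.20, adjusted p = 2.23e-17) and 19.0-fold lower in pcr1Δ (-4.25 ± 0.20). Against the mean of both WT series the log2 difference was -3.70 ± 0.19 and -3.77 ± 0.19. Catalase followed with a smaller difference: ctt1 was at 50.5 ± 11.1 CPM in atf1Δ and 41.0 ± 5.36 in pcr1Δ against 130 ± 13.5 in clr4Δ, log2 -1.37 ± 0.25 (adjusted p = 3.9e-05) and -1.66 ± 0.25 (adjusted p = 3.02e-06, edgeR).

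The peroxiredoxin gene went the other way. At 0 min tpx1 stood at 2153, 2809 and 2671 CPM in atf1Δ and 2413, 2058 and 2342 in pcr1Δ, against 653, 589 and 788 in clr4Δ. All 6 libraries lay above every clr4Δ library and above every WT library at 0 min. The log2 difference from clr4Δ was 1.91 ± 0.21 in atf1Δ and 1.75 ± 0.21 in pcr1Δ, with adjusted p of 7.78e-09 and 4.69e-08. At 5 min tpx1 stood at 2887, 3962 and 4061 CPM in atf1Δ and 2818, 3026 and 2759 in pcr1Δ.

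The transferase gst2 was the member that separated atf1Δ from pcr1Δ. It stood at 1636, 1506 and 1952 CPM in atf1Δ at 0 min, at 667, 684 and 691 in pcr1Δ and at 412, 337 and 518 in clr4Δ, with no overlap between the 3 strains. The level was 4.02-fold higher in atf1Δ than in clr4Δ (log2 2.01 ± 0.24, adjusted p = 3.2e-08) and 1.32 ± 0.23 higher on the log2 scale than in pcr1Δ (adjusted p = 0.000745). Between these 2 strains gst2 was the only one of the 9 called, beside 1.25% of all genes higher and 0.162% lower in atf1Δ. The difference of pcr1Δ from clr4Δ was 0.69 ± 0.23 (adjusted p = 0.0155), and was lost without replicate 2 of clr4Δ at 0 min (0.0916). Against RNA1 alone it was -0.06 in pcr1Δ (adjusted p = 0.864) and against RNA2 alone 0.67 (adjusted p = 0.0209, edgeR).

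In pcr1Δ srx1 was above clr4Δ at 0 min by 0.86 ± 0.19 (adjusted p = 0.000428), at 77.5 ± 16.5 CPM (SD, n = 3) against 42.7 ± 3.52. In atf1Δ srx1 was at 56.2 ± 3.27 CPM, a log2 difference of 0.40 ± 0.19 (adjusted p = 0.0875). For sod1, pcr1Δ was lower than clr4Δ by -1.05 ± 0.28 (adjusted p = 0.00266), at 417, 201 and 230 CPM against 649, 503 and 609. The gst1 difference of 0.66 ± 0.27 (adjusted p = 0.0453) was lost in 5 of 6 fits that left out a library, with adjusted p up to 0.171, with library totals (0.0583) and in DESeq2 (0.0602).

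Against the mean of both WT series at 0 min, 4 members were higher and 2 lower in atf1Δ, beside 22.7% and 21.8% of all genes, and 3 were higher and 3 lower in pcr1Δ, beside 19.1% and 19.2%. The members called in both strains were gpx1 and ctt1, lower, and srx1, tpx1 and gst3, higher. The log2 values for srx1 were 1.24 ± 0.16 in atf1Δ and 1.71 ± 0.16 in pcr1Δ, and those for tpx1 1.71 ± 0.17 and 1.54 ± 0.17. In pcr1Δ sod1 was lower (-0.69 ± 0.25, adjusted p = 0.0248), but -0.13 (adjusted p = 0.756) against RNA1 alone, and the call was lost in 4 of 9 fits that left out a library (adjusted p up to 0.173). In clr4Δ 4 members (gpx1, srx1, trr1 and gst3) were higher and none lower, beside 14.3% and 10.3%, and none of these 4 was called against RNA2 alone.

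**Figure D4:**
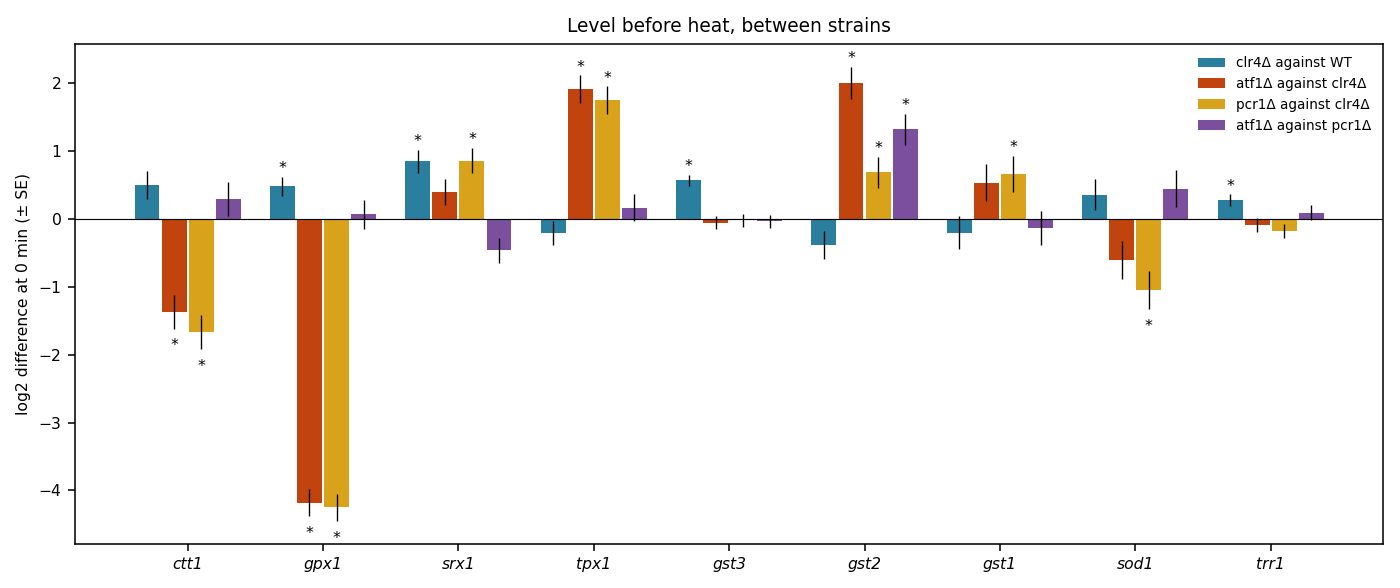
Log2 difference in level at 0 min of each member (bars, with standard errors) for clr4Δ against the mean of both WT series, atf1Δ and pcr1Δ against clr4Δ, and atf1Δ against pcr1Δ; an asterisk marks an adjusted p below 0.05 in edgeR. The gpx1 bars reach -4.18 and -4.25 against clr4Δ, and tpx1 reaches 1.91 and 1.75.

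Genes of the same pathways were read from lists of other glutathione, thioredoxin, NADPH, Sty1 and Pap1 genes, chosen with earlier results of these data known. The shares of all tested genes called higher and lower, to be set beside each count, were 24.9% and 23.5% in RNA1 at 5 min, 33.9% and 33.5% at 25 min, 16.2% and 14.0% in clr4Δ at 5 min, 12.6% and 17.3% in atf1Δ and 12.5% and 14.9% in pcr1Δ. In RNA2 at 5 min 873 of the 6172 tested genes were higher and 805 lower (27.2% in either direction). Of 9 genes of glutathione synthesis, glutathione reductase and glutaredoxins, 3 rose and 1 fell at 5 min in RNA1, 2 rose and 5 fell at 25 min, and 1 rose and 1 fell at 5 min in RNA2. Their median log2 fold change in RNA1 at 5 min was 0.07, against 0.00 over all genes, and the medians of the lists that follow were 0.24 for the thioredoxin list, 0.40 for NADPH supply, 0.39 for Sty1 and 0.26 for Pap1 targets. The glutaredoxin gene grx1 rose by 1.53 ± 0.16 at 5 min and 2.60 ± 0.16 at 25 min in RNA1 and by 0.46 ± 0.15 in RNA2, and at 0 min it was lower than in clr4Δ by -1.78 ± 0.16 in atf1Δ and -2.16 ± 0.16 in pcr1Δ. At 25 min grx4, a monothiol glutaredoxin, fell by 1.26 ± 0.08. At 5 min 1 of the 9 rose in atf1Δ (the glutathione reductase gene pgr1, 0.26 ± 0.10) and none in pcr1Δ, where none fell either.

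Of 8 genes of thioredoxins, other peroxidases, dismutases and methionine sulfoxide reductases, 4 rose and 2 fell at 5 min in RNA1 and 3 rose and none fell in RNA2, in clr4Δ and in atf1Δ, while none was called in pcr1Δ. The thioredoxin gene trx1 rose by 1.23 ± 0.14 in RNA1, 0.55 ± 0.14 in RNA2, 0.66 ± 0.14 in clr4Δ and 0.53 ± 0.14 in atf1Δ. The peroxiredoxin gene pmp20 rose by 1.66 ± 0.21 in RNA1, and sod2, the mitochondrial dismutase, by 0.74 ± 0.09. Of 5 NADPH-supplying genes, 3 rose at 5 min in RNA1, led by gnd1 of the pentose phosphate pathway (1.07 ± 0.16), and none was called in RNA2.

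Of 19 genes of the Sty1 pathway and of transcription factors of the oxidative stress response, 10 rose and 5 fell at 5 min in RNA1, 10 rose and 3 fell in RNA2, 10 rose and 5 fell in clr4Δ, 5 rose and 4 fell in atf1Δ and 6 rose and 4 fell in pcr1Δ. The phosphatase gene pyp2, whose product switches Sty1 off, rose by 4.79 ± 0.30 in RNA1, 4.41 ± 0.30 in clr4Δ, 1.09 ± 0.28 in atf1Δ and 1.17 ± 0.28 in pcr1Δ. Its response was smaller than in clr4Δ by -3.31 ± 0.40 in atf1Δ and -3.23 ± 0.40 in pcr1Δ. A rise of pyp2 was called in both of these strains, and none of ctt1 or gpx1 was. Of 3 other Pap1 targets, 1 rose at 5 min in RNA1 and none was called in RNA2. At 0 min the Pap1 target obr1 was lower than in clr4Δ by -0.86 in atf1Δ and -2.09 in pcr1Δ, and caf5 was higher in atf1Δ by 1.61 ± 0.36.

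Over the 13 group means, the pattern of ctt1 was closest to that of gpx1 among the members (Pearson r of log2 levels 0.922), and next to gst3 (0.752), while tpx1 ran with gst2 (0.831) and against sod1 (-0.661). Among 4899 genes compared, those most like ctt1 were SPBC16A3.02c (0.989), etr1 (0.986) and pil1 (0.985). For gpx1 they were SPBC2A9.02 (0.989), SPAC9E9.04 (0.988) and SPBPB21E7.08 (0.983), and for gst3 SPBC12C2.04 (0.991), SPAC637.03 (0.973) and SPBP4H10.17c (0.972). For srx1 the closest were pdr1 (0.889), spg1 (0.877) and SPCC569.05c (0.872), and for tpx1 idh1 (0.978), coq3 (0.978) and SPAC10F6.17c (0.977). The gst2 pattern was most like osr1 (0.986), and that of gst1 most like saf4 (0.971). These are descriptions over groups that share series and scaling.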

How the data were processed

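Counts of reads per gene were deposited by the authors for each of the 39 mRNA libraries, with 7015 gene identifiers, and were used as deposited. Per the submitters' processing notes, STAR, deepTools, bedtools 2.17.0, Trimmomatic 0.33 and Bowtie 0.12.9 were used, with genome build ASM294v2; which tool made the counts and with which strand setting is not given in the sources used here. Reads outside genes stayed out of library sizes: 6.80% to 21.2% mapped to several places, 1.19% to 2.49% to no gene and 0.709% to 1.37% to several genes. Gene positions in ASM294v2 (ctt1 III:56654-58865, gpx1 II:2788863-2789614, srx1 II:376253-377036, tpx1 III:2084942-2085706, sod1 I:1002838-1003600, trr1 II:4189144-4191448, gst1 III:1719143-1720128, gst2 III:2294617-2296383, gst3 I:3115639-3116928; trr1 on the plus strand, the others on the minus) come from the authors' second table. That table holds signal values for 18 of the libraries (WT of RNA2 and clr4Δ), which, by their values, are read depth summed over each gene's bases, not scaled to library size: a median of 49.8 per count of the same library.

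Counts were fitted with edgeR 4.0.16 in R 4.3.3 (quasi-likelihood, TMM scaling) over all 13 groups of 3, after filterByExpr with a minimum count of 10 and a minimum total of 15, which left 6172 genes and 26 residual degrees of freedom. P-values of 24 comparisons were adjusted over all tested genes by Benjamini-Hochberg, and called below 0.05. Intervals are 95% model intervals and counting limits cover counting error only. The planned count test of the second table was replaced by limma 3.58.1 on log2 signal, after adding 50 and requiring a mean of 500 (6150 genes), since those deposited values are not counts. DESeq2 1.42.0 was an alternative, with other scalings, no filter, fits of the compared groups alone, each library left out and the replicate number as a block. The block within each course and WT of 1 series alone were added after seeing the data. The scripts were tested on simulated data.

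Replicate numbers come from the labels. Deviations of same-numbered libraries correlated at 0.247 or more in RNA1, 0.174 in RNA2, 0.211 in clr4Δ and 0.101 in pcr1Δ, so these numbers were taken to pair the libraries within those courses. Differently numbered libraries correlated at up to -0.002 in RNA1, 0.207 in RNA2, 0.015 in clr4Δ and 0.111 in pcr1Δ. The pairing is therefore less clear in RNA2 and pcr1Δ, and so are the calls made with the block there. Replicates differed by more than sampling noise (lowest chi-square per degree of freedom 5.47). Promoters and motifs were read in RefSeq's ASM294v3, whose gene starts differ from ASM294v2, with Biopython 1.88. The members and the pathway lists were chosen with earlier results of these data known. Of the listed names, all but 1 Pap1 target and 2 of 10 thioredoxin genes were used. Beyond the members, the text names list genes that were called and, per member, up to 3 genes with the highest correlation over group means, among genes with mean CPM of 10 or more. The 222 samples of other assays (198 ChIP-seq, 24 PRO-seq) were not used here.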

Additional observations from a re-analysis of the deposited data

Results flagged for a closer look

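The heat response of the members differed between groups in 20 tested differences of log2 fold change at 5 against 0 min, from the model over all libraries. Between the WT series (RNA1 minus RNA2) the values were 1.38 for ctt1, 1.23 for gpx1, 0.95 for gst3, 0.89 for tpx1 and 0.84 for srx1. For atf1Δ minus WT they were -3.02 for ctt1, -2.84 for srx1, -2.24 for gpx1 and -0.94 for gst3, and for pcr1Δ minus WT -3.10, -2.41, -2.44 and -1.08 in the same order. For clr4Δ minus WT the value was -0.68 for gst3. Within RNA3 the values were -2.20 for ctt1, -1.68 for gpx1 and -2.34 for srx1 in atf1Δ minus clr4Δ, and -2.28, -1.88 and -1.91 in pcr1Δ minus clr4Δ. Differences from WT carry the difference between series, and this part in them was not tested.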

How the results depend on the processing

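Counts of genes called, and of members called higher or lower, that moved by over 1.5 times are given by setting, and the other values kept their call or stayed within that range. A count of genes without its own direction is of genes called in either direction, also where members higher or lower follow it. No value reversed. In the fits with all libraries, 1552 member values kept their side of the threshold, 97 passed it only in the alternative and 24 only in the main model, and among fits that left out a library 1858, 14 and 45. The causes were not tested. Leaving out the filter on low counts moved none of these counts. For some settings the all-gene shares by direction are not given, so member counts there cannot be set beside a share. These settings are the compared groups alone, the second table and the block within strain and series. WT of 1 series alone and fits that left out a library are also among them.

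With RLE size factors 2 members were higher in atf1Δ at 5 min, where 951 of all genes were higher and 960 lower. With library totals alone 1 member was lower in RNA1 at 5 min, 7 were higher and 1 lower there from 5 to 25 min, 71 genes were called and 0 members higher in RNA2 at 2.5 min, 2 members were lower in atf1Δ, 3 had a larger response in RNA1 than RNA2, 81 genes differed in response between clr4Δ and WT and 4 between atf1Δ and pcr1Δ. With library totals the median of all genes was -0.21 in RNA1 at 5 min (970 genes higher and 2359 lower, in place of 1535 and 1453), 0.27 from 5 to 25 min (2767 and 1069, in place of 1755 and 1829), -0.11 in RNA2 at 5 min (520 and 1021, in place of 873 and 805), -0.18 in atf1Δ (320 and 1707, in place of 778 and 1068), -0.11 in pcr1Δ (410 and 1178, in place of 771 and 920) and -0.15 (in place of -0.04) for the response of atf1Δ minus clr4Δ. The split also moved in RNA2 from 2.5 to 5 min (308 and 457, in place of 458 and 376), in clr4Δ from 2.5 to 5 min (305 and 561, in place of 529 and 459) and at 5 min (642 and 1018, in place of 1001 and 864), and between RNA1 and RNA2 (257 and 203, in place of 424 and 149).

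With DESeq2, 2 members were higher in atf1Δ, where 994 of all genes were higher and 977 lower. In clr4Δ at 2.5 min 154 genes were called (79 higher and 75 lower) and 3 members were higher. The response of 4 genes differed between atf1Δ and pcr1Δ. In edgeR on the compared groups alone, 7 members were higher in RNA1 from 5 to 25 min. In RNA2 at 2.5 min 32 genes were called and 0 members were higher. From 2.5 to 5 min 273 genes were called and 2 members were higher (gpx1 at adjusted p = 0.0625 and srx1 at 0.0522 were lost). At 5 min in RNA2 1092 genes were called and 0 members were lower. In atf1Δ 2 members were higher and 2 lower, and in pcr1Δ 1 was higher. In clr4Δ 55 genes were called and 1 member was higher at 2.5 min, 404 genes were called from 2.5 to 5 min (gst3 was lost, 0.0688) and 1063 at 5 min. Responses in the compared groups alone differed for 335 genes between RNA1 and RNA2, 50 between clr4Δ and WT and 7 between atf1Δ and pcr1Δ. Levels differed for 1012 between clr4Δ and WT and 145 between atf1Δ and pcr1Δ. In the second table, 42 genes were called at 2.5 min in RNA2 and 0 members were higher. From 2.5 to 5 min 541 genes were called in RNA2. In clr4Δ 51 genes were called at 2.5 min and 640 from 2.5 to 5 min.

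Numbers did not pair the libraries of atf1Δ (lowest correlation of deviations -0.075) or of different strains in RNA3 (-0.232). With the replicate block within series, 1 member was lower in RNA1 at 5 min, where 1670 of all genes were higher and 1588 lower. At 2.5 min 273 genes were called in RNA2, and 296 genes (153 higher and 143 lower) and 3 members higher in clr4Δ. In atf1Δ 2 members were higher and 2 lower, beside 1058 and 1253 of all genes. Responses differed for 971 genes between RNA1 and RNA2, 704 between pcr1Δ and WT, 417 genes and 4 members lower between clr4Δ and WT, 337 between atf1Δ and clr4Δ, 225 between pcr1Δ and clr4Δ and 6 between atf1Δ and pcr1Δ. For clr4Δ minus WT 121 of all genes had a larger and 296 a smaller response. Levels differed for 158 genes between atf1Δ and pcr1Δ, and 1 member was lower in clr4Δ than in WT, where 1220 of all genes were higher and 974 lower.

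With the replicate block within strain and series, 1 member was lower in RNA1 at 5 min, 7 higher from 5 to 25 min, 483 genes called in RNA2 at 2.5 min and 1558 from 2.5 to 5 min. In atf1Δ 2817 genes, 4 members higher and 2 lower, and in pcr1Δ 2648 genes, 1 higher and 2 lower, were called. In clr4Δ 582 genes and 3 members higher were called at 2.5 min, and 1811 genes and 1 member lower from 2.5 to 5 min. Responses differed for 1406 genes between RNA1 and RNA2, 1107 between atf1Δ and WT, 1088 between pcr1Δ and WT, 901 genes and 5 members lower between clr4Δ and WT, 764 genes and 1 member higher between atf1Δ and clr4Δ, 494 genes and 5 members lower between pcr1Δ and clr4Δ, and 11 genes between atf1Δ and pcr1Δ. Levels showed 5 members higher in pcr1Δ than WT, 2787 genes and 1 member lower in clr4Δ than WT, 4 members higher in atf1Δ than clr4Δ, and 316 genes, 2 members higher and 1 lower in atf1Δ than pcr1Δ. Beyond those given with the results, this block changed no other call of a member's heat change, or of its difference between courses, where the numbers pair. Levels at 0 min compare different courses, which the numbers do not pair.

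Against WT of RNA1 alone, responses differed for 994 genes in atf1Δ, 1016 in pcr1Δ and 846 genes and 5 members lower in clr4Δ, and levels for 2316 genes with 2 members lower in clr4Δ. Against RNA2 alone, responses differed for 128 genes in atf1Δ, 126 in pcr1Δ and 1 in clr4Δ, with 0 members lower in clr4Δ. Levels in clr4Δ differed from RNA2 alone for 230 genes, with 0 members higher.

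With each library left out in turn, genes called ranged from 48 to 168 (main 107) in RNA2 at 2.5 min and 477 to 1004 (834) from 2.5 to 5 min, 40 to 120 (97) in clr4Δ at 2.5 min and 651 to 1000 (988) from 2.5 to 5 min. They ranged from 64 to 265 (162) for the response and 827 to 1576 (1519) for the level of clr4Δ minus WT, and 0 to 2 (2) and 41 to 82 (87) for atf1Δ minus pcr1Δ. Members higher ranged from 3 to 5 for the response of RNA1 minus RNA2, 2 to 4 for the level of clr4Δ minus WT and of pcr1Δ minus clr4Δ, 0 to 3 in RNA2 and in clr4Δ at 2.5 min, and 0 to 2 in atf1Δ. Members lower ranged from 0 to 1 in RNA1 at 5 min, RNA2 at 5 min and clr4Δ from 2.5 to 5 min, and 1 to 2 for the response of clr4Δ minus WT. Depth limits gst1 above all, with 7 to 66 counts a library.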
